A study of Mus musculus with 8 samples.

Results

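The genes described here encode the SIAH ubiquitin ligases, chosen by the gene symbols Siah1a, Siah1b and Siah2 among those listed for every library. They are 3 of 18846 gene symbols and 5 of 28678 RefSeq transcript rows, since Siah1b has 3 rows (NM_001308385, NM_001308386 and NM_009173) and Siah1a (NM_009172) and Siah2 (NM_009174) have 1 each. The libraries are RNA sequencing of 8 mouse adrenal glands, each from a different animal of the strain labelled 129SVEV. Siah1a -/- (knockout) mice given ACTH, untreated Siah1a -/- mice, wild-type mice given ACTH and untreated wild-type mice contributed 2 glands each, with 1 animal labelled male and 1 labelled female in every group. ACTH (adrenocorticotropic hormone, which drives steroid synthesis in the adrenal cortex) was given intraperitoneally at 100 µg/kg, and glands were taken 1 hour later. The labels list no vehicle injection, no age, and no account of how the Siah1a allele was inactivated, so injection and ACTH cannot be told apart here. The study's title places the work in adrenal gland organization and hyperaldosteronism.

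SIAH proteins are RING-type E3 ubiquitin ligases, the enzymes that choose which proteins are marked for degradation by the proteasome. A RING domain near the amino terminus binds the E2 conjugating enzyme, and a carboxy-terminal domain binds substrates, or adaptors that bring substrates. Mice have 2 close copies of the human SIAH1 gene, Siah1a and Siah1b. Siah2 is best known for controlling the prolyl hydroxylases that set the level of the hypoxia factor HIF-1α. ACTH acts on cortical cells through a receptor that raises cyclic AMP.

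Siah1a lies on the minus strand of chromosome 8 (chr8:86720454-86746006, mm10), Siah1b on the minus strand of the X chromosome (chrX:164070703-164076493) and Siah2 on the minus strand of chromosome 3 (chr3:58674949-58692439), and all 3 are annotated as protein coding. In GENCODE transcripts, the whole coding sequence of Siah1a lay in exon 2 of 2 (chr8:86725009-86725854), and that of Siah1b in exon 4 of 4 (chrX:164071237-164072082). The coding sequence of Siah2 (975 bases) was spread over 2 exons. Siah1a and Siah1b each had 846 coding bases, of which 821 (97.0%) were identical. Against the aligned part of Siah2, Siah1a was 73.4% and Siah1b 72.5% identical. This likeness bears on the counts of Siah1a and Siah1b below, because a read of 75 bases may match both Siah1 genes, and their assignment is a detail not given in the sources used here.

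The longest stretch without a difference ran for 141 bases, from coding position 81 to 221 counted from the start codon, and no read that falls inside it can be given to one gene rather than the other. It is shown with 12 bases on each side, as transcribed (minus strand of mm10), with capitals at positions that differ between the genes.
Siah1a chr8:86725622-86725786: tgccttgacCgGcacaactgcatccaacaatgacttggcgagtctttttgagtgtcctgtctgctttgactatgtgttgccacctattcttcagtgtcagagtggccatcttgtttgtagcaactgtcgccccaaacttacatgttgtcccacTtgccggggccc
Siah1b chrX:164071850-164072014: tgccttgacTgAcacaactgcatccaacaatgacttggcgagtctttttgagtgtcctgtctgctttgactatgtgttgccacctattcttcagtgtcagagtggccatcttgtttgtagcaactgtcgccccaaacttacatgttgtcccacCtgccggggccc

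The window of 75 coding bases with the most differences among those that tie at the maximum, the one nearest the start codon, had 5. It shows the most that a read of this length within the coding sequence can differ, again with capitals at the differing positions.
Siah1a chr8:86725775-86725849: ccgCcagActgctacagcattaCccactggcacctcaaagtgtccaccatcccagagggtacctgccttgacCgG
Siah1b chrX:164072003-164072077: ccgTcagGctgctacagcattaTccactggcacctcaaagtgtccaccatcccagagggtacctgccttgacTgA

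Over the coding sequence, 70 of 772 windows of 75 bases had no difference, the median window had 2 and none had more than 5. At most 2 differences were found in 534 windows (69.2%). Over the whole Siah1a transcript, untranslated parts included, 90 of 1894 windows (4.75%) were found letter for letter in a Siah1b transcript, and 0 were found in Siah2.

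**Figure D1:**
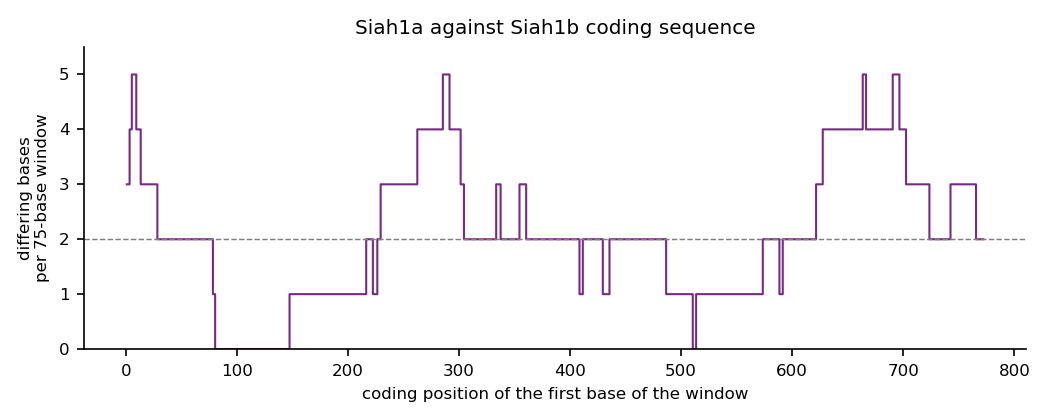
Number of bases that differ between Siah1a and Siah1b in each window of 75 coding bases (y axis), by the coding position of the window's first base (x axis); the dashed line marks 2 differences. Identical windows start between positions 81 and 147 and again near position 512, and no window exceeds 5 differences.

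Whole-series facts that touch the SIAH genes are these. The deposited estimated counts summed to between 8020111 and 29568950 per library. All 7 markers of adrenal cortex fixed for this work were counted in every library (summed level 26956 to 51212 CPM, a count scaled for the depth of its library), and so were all 5 markers of chromaffin medulla (1800 to 7369 CPM). The untreated wild-type library labelled male goes against that label: Xist, the RNA that silences an X chromosome in females, was at 388 CPM, and 3 of the 4 Y-linked markers were at 0. The same library held 6 kidney markers at a summed 1464 CPM, against at most 9.51 CPM elsewhere. In the wild-type female given ACTH, 6 liver markers summed to 60457 CPM, against at most 671 CPM elsewhere. In the knockout male given ACTH, 4 neuronal markers summed to 431 CPM, against at most 64.9 CPM elsewhere. Averages are therefore also given without the untreated wild-type library labelled male where that moves them.

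Siah1a, the gene targeted in the knockout, was still counted in all 4 knockout glands, at about 70% of the wild-type level. The count is of the whole transcript row and does not show which exons the reads came from. It had 267.014 (labelled male) and 227.03 (female) estimated counts in the ACTH-treated knockout and 378.792 (male) and 261 (female) in the untreated knockout. The wild type had 809.692 (male) and 849 (female) after ACTH, and 224 (labelled male) and 476.841 (female) untreated. Depth differs between libraries, so the levels are better compared as RPKM (reads scaled by transcript length and library depth), which the authors deposited beside the counts. Siah1a stood at 7.43 (male) and 7.05 (female) RPKM in the ACTH-treated knockout and at 9.85 (male) and 8.66 (female) RPKM in the untreated knockout. The ACTH-treated wild type had 13.4 (male) and 11.8 (female) RPKM, and the untreated wild type 11.2 (labelled male) and 10.8 (female) RPKM. Every knockout value lay below every wild-type value. The knockout was therefore bound to be lower in all 4 pairs that share treatment and sex label, and the pairs add no support. Such a one-way separation of knockout below wild type was found for 4.51% of the 15361 genes tested. A separation with the knockout above was found for 3.87%, and in either direction for 8.38%.

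The mean Siah1a level was 8.25 ± 1.27 RPKM in the knockout and 11.8 ± 1.13 RPKM in the wild type (SD, n = 4 each), which makes the knockout mean 69.9% of the wild-type mean. The mean difference was -0.52 on the log2(RPKM + 0.1) scale, with an exact two-sided permutation p of 0.0286, the smallest that 4 against 4 libraries can give. Leaving out any 1 wild-type library gave an exact permutation p of 0.0571. edgeR's quasi-likelihood test on the counts gave a log2 fold change of -0.52 (SE 0.23, 95% interval -1.05 to 0.02), and the Benjamini-Hochberg adjusted p of 0.383 did not pass the threshold of 0.05. In that comparison 0.026% of genes (4 of 15361) were called. Without the untreated wild-type library labelled male the edgeR log2 fold change was -0.63, and the knockout mean was 68.7% of the wild-type mean in RPKM. In bulk tissue, fewer cells that express a gene and less RNA per cell cannot be told apart. The summed chromaffin markers ranged over 1800 to 7369 CPM in the knockout and 1997 to 3991 CPM in the wild type, and the cortex markers over 38359 to 51212 CPM in the knockout and 26956 to 45417 CPM in the wild type; their part in the Siah1a difference was not tested.

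**Figure D2:**
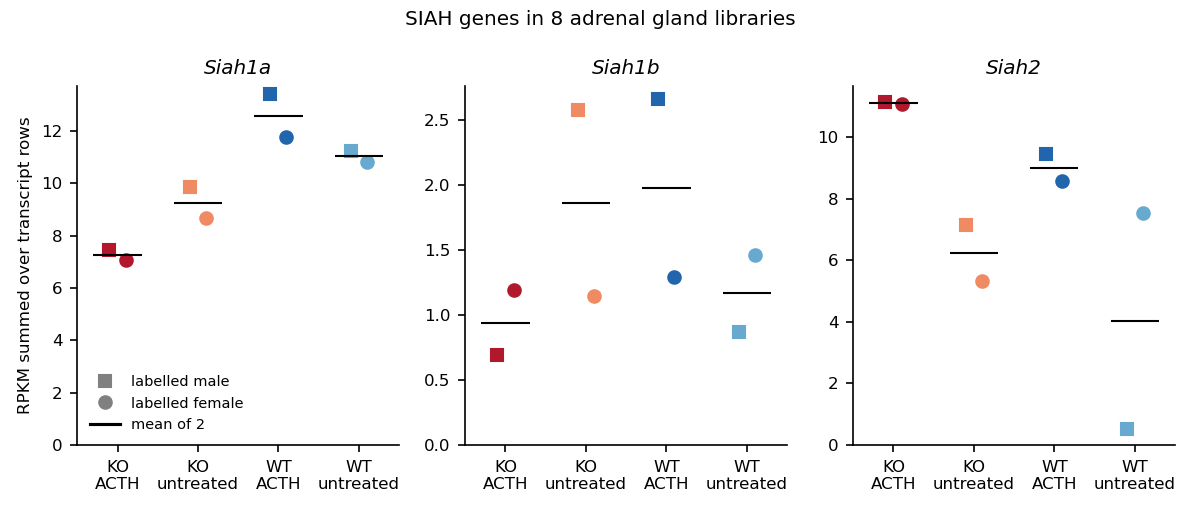
Level of each SIAH gene (RPKM, rows summed; y axes differ and start at 0) in each library, by group along the x axis; squares are animals labelled male, circles those labelled female, and bars the mean of 2. Siah1a in the 4 knockout libraries (7.05 to 9.85 RPKM) lies below the 4 wild-type libraries (10.8 to 13.4 RPKM), and Siah2 in the 4 ACTH libraries (8.57 to 11.1 RPKM) lies above the 4 untreated ones (0.509 to 7.54 RPKM).

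The gap between the genotype means of Siah1a was wider in the ACTH-treated glands, though that difference did not pass its test. There the knockout mean was 7.24 ± 0.269 RPKM and the wild-type mean 12.6 ± 1.15 RPKM (SD, n = 2 each), or 57.5%. In untreated glands the means were 9.25 ± 0.842 RPKM in the knockout and 11.0 ± 0.273 RPKM in the wild type (n = 2 each), or 84.0%. edgeR put the log2 fold change of knockout over wild type at -0.85 after ACTH (SE 0.31, 95% interval -1.58 to -0.12, adjusted p 0.553) and at -0.18 without treatment (SE 0.30, 95% interval -0.91 to 0.54, adjusted p 0.935). In these comparisons 0.00651% of genes (1 of 15361) were called after ACTH and 0.0% (0 of 15361) in untreated glands. An unadjusted edgeR p under 0.05 was found for 1264 genes (8.23%) after ACTH, where that of Siah1a was 0.0283, and for 743 (4.84%) in untreated glands. Read the other way, Siah1a was lower after ACTH than without it in both knockout pairs and higher after ACTH in both wild-type pairs. The edgeR values for ACTH over untreated were -0.35 in the knockout (SE 0.31, adjusted p 0.999) and 0.32 in the wild type (SE 0.30, adjusted p 1). The test of the difference between these effects gave -0.67 (SE 0.43, 95% interval -1.69 to 0.36) with an edgeR adjusted p of 1 and an unadjusted p of 0.166, so the difference did not pass. For this interaction edgeR called 0.0% of genes (0 of 15361), with 283 (1.84%) at an unadjusted p under 0.05, and DESeq2 called 8.

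Averaged over genotypes, Siah1a did not separate by treatment. The means were 9.91 ± 3.16 RPKM after ACTH and 10.1 ± 1.14 RPKM without (SD, n = 4 each), the groups overlapped, and the exact permutation p was 0.771. The edgeR log2 fold change was -0.01 (SE 0.23, 95% interval -0.54 to 0.52, adjusted p 0.997), and its sign turned with limma-voom (0.05). Without the untreated wild-type library labelled male the edgeR value was -0.12.

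Part of the Siah1a count depended on a gene on the opposite strand. Gm10638, a long noncoding RNA of unassigned function, is annotated on the plus strand at chr8:86745699-86747060 and overlaps the start of Siah1a by 308 bases, which cover exon 1 of the GENCODE Siah1a transcript. The Siah1a count was fractional in 5 libraries and whole in 3, although Siah1a has 1 row. Of the 28677 other rows, Gm10638 was the only 1 whose count completed Siah1a to a whole number in every library (within 0.01). The sums were 284 and 263 in the ACTH-treated knockout, 397 and 287 in the untreated knockout, 844 and 901 in the ACTH-treated wild type, and 238 and 484 in the untreated wild type, in each group the library labelled male before the female. By contrast, Siah2 counts and the summed Siah1b counts were whole in 8 of 8 libraries, so these counts show no fraction of a read shared between the SIAH genes. Whole sums were common, at 70.9% to 88.7% of counted genes with several rows in a library.

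Gm10638 made up 5.98% and 13.7% of these sums in the ACTH-treated knockout (male, female), 4.59% and 9.06% in the untreated knockout, 4.06% and 5.77% in the ACTH-treated wild type and 5.88% and 1.48% in the untreated wild type. Its mean level was 1.82 ± 0.759 CPM in the knockout and 1.35 ± 0.690 CPM in the wild type (SD, n = 4 each). The library kit is described as directional, but the use of strand in counting is a detail not given in the sources used here, so reads in the overlap cannot be attributed to either gene. With all Gm10638 reads added to Siah1a, an alternative chosen after the data were seen, the log2 fold change of knockout over wild type was -0.45 (edgeR adjusted p 0.427), and that of ACTH over untreated was 0.02.

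**Figure D3:**
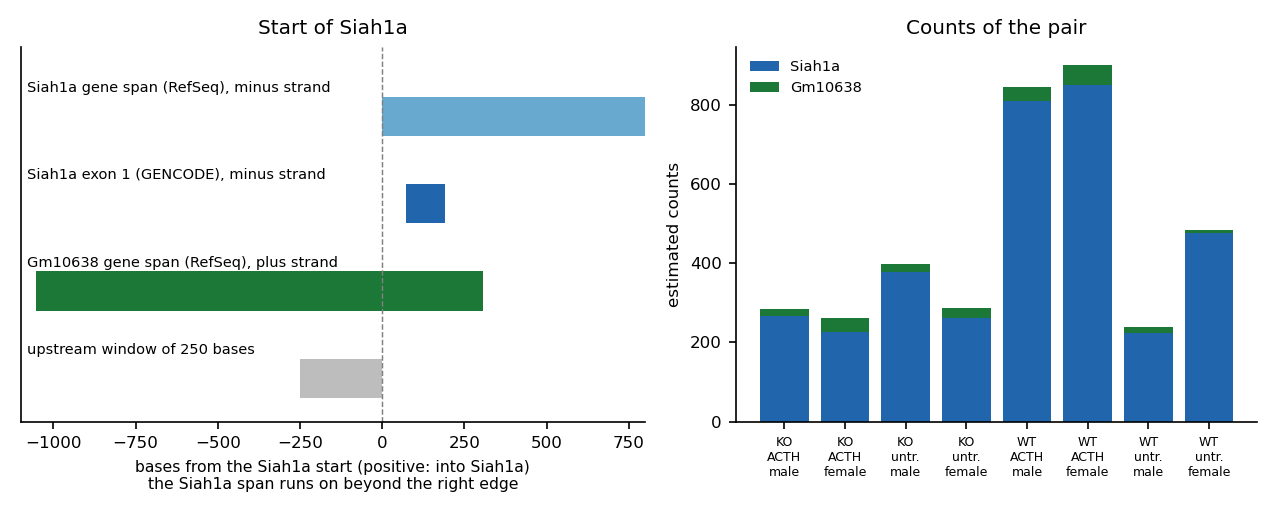
Left, the start of Siah1a and the span of Gm10638 as distance in bases from the Siah1a start (x axis, positive into Siah1a), with the 250-base upstream window; right, estimated counts of Siah1a with those of Gm10638 stacked on top (y axis) per library. The spans share 308 bases, and Gm10638 adds between 1.48% and 13.7% of the stacked count.

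The genes on each side of Siah1a gave similar estimates. Gm10638, which overlaps its start, went the other way, with a log2 fold change of 0.41 for knockout over wild type (SE 1.09, edgeR adjusted p 0.909). Lonp2, which encodes a peroxisomal protease and ends 3817 bases from Siah1a, averaged 108 ± 22.7 CPM in the knockout and 158 ± 61.4 CPM in the wild type (SD, n = 4 each). N4bp1, which encodes a regulator of RNA decay and innate immune signalling, averaged 54.8 ± 14.1 CPM in the knockout and 74.98 ± 8.27 CPM in the wild type (SD, n = 4 each). The log2 fold changes were -0.48 for Lonp2 (SE 0.21, edgeR adjusted p 0.381) and -0.46 for N4bp1 (SE 0.20, edgeR adjusted p 0.383), and neither passed. For N4bp1 the knockout reached 70.6 CPM and the wild type went down to 66.8 CPM, so the groups overlapped, as they did for Lonp2. The highest Lonp2 value, 236 CPM, came from the wild-type female given ACTH, the library with liver transcripts, whose part in the Lonp2 mean was not tested.

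Siah1b, the X-linked copy, was counted in every library below Siah1a, whose RPKM was 3.82 to 12.9 times as high, and showed no separation by genotype or treatment. Its summed counts were 20 (male) and 31 (female) in the ACTH-treated knockout, 93 (male) and 28 (female) in the untreated knockout, 140 (male) and 84 (female) in the ACTH-treated wild type, and 14 (labelled male) and 60 (female) in the untreated wild type. In the same order the RPKM were 0.689 and 1.19, then 2.57 and 1.15, then 2.66 and 1.29, then 0.867 and 1.46. The highest values, 2.57 and 2.66 RPKM, came from a knockout and a wild-type library, and the lowest, 0.689 and 0.867 RPKM, likewise. The libraries labelled female lay between 1.15 and 1.46 RPKM, and those labelled male between 0.689 and 2.66 RPKM.

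The Siah1b mean was 1.40 ± 0.815 RPKM in the knockout and 1.57 ± 0.769 RPKM in the wild type (exact permutation p 0.657). It was 1.46 ± 0.844 RPKM after ACTH and 1.51 ± 0.748 RPKM without treatment (exact permutation p 0.829; SD, n = 4 each). edgeR gave -0.26 for knockout over wild type (SE 0.84, 95% interval -2.20 to 1.68, adjusted p 0.928) and -0.14 for ACTH over untreated (SE 0.83, 95% interval -2.07 to 1.79, adjusted p 0.990). Without the untreated wild-type library labelled male these 2 estimates were -0.70 and -0.54. The wild-type mean was then 1.80 ± 0.748 RPKM and the untreated mean 1.73 ± 0.749 RPKM (SD, n = 3 each). After ACTH the knockout mean was 0.940 ± 0.355 RPKM and the wild-type mean 1.97 ± 0.971 RPKM, or 47.6% (edgeR log2 fold change -1.19, SE 1.20, adjusted p 0.844). In untreated glands it was 1.86 ± 1.01 RPKM in the knockout and 1.16 ± 0.421 RPKM in the wild type (SD, n = 2 each), or 160% (0.72, SE 1.21, edgeR adjusted p 0.937). The averages thus combine opposite directions, whose difference was -1.91 (SE 1.75, edgeR adjusted p 1). The untreated estimate was -0.01 without the untreated wild-type library labelled male and -0.23 without the untreated knockout male. In the average comparison by treatment 0.0195% of genes (3 of 15361) were called. Both average intervals hold a change of more than 1 log2 unit in either direction, so these data show neither a rise of Siah1b in the knockout nor its lack. Siah1a made up between 80.3% (exact binomial 95% interval 76.4% to 83.8%, untreated knockout male) and 94.1% (90.3% to 96.7%, wild-type library labelled male, untreated) of the counts of both Siah1 genes. These intervals cover counting error only.

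By the split of Siah1b counts over its transcript rows, the libraries fell into 2 sets. The row lengths implied by count and RPKM are 1699 bases for NM_001308386, 1985 bases for NM_001308385 (286 more) and 1799 bases for NM_009173 (100 more). In 4 libraries the split was the same far within the 0.1 percentage points set as tolerance: NM_001308386 held 94.2369% in each, NM_009173 held 5.72% and NM_001308385 held 0.0461%. Their row counts were fractional, such as 13.1932 on NM_001308386 of 14 reads in the untreated wild-type library labelled male. The row values are thus estimates and not whole reads counted per row. These were both ACTH-treated knockout libraries, the untreated knockout female and the untreated wild-type library labelled male, and they had the fewest Siah1b reads, 14 to 31, and the lowest total counts, 8020111 to 14303494. In the other 4 libraries, with 60 to 140 reads and totals of 15182870 to 29568950, NM_001308385 held 98.6% (untreated knockout male), 45.7% (ACTH-treated wild-type male), 75.3% (ACTH-treated wild-type female) and 93.8% (untreated wild-type female). No library in the first set had even 1 estimated count on NM_001308385, while the other set had between 56.3 and 91.7. The part of depth in the split was not tested.

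**Figure D4:**
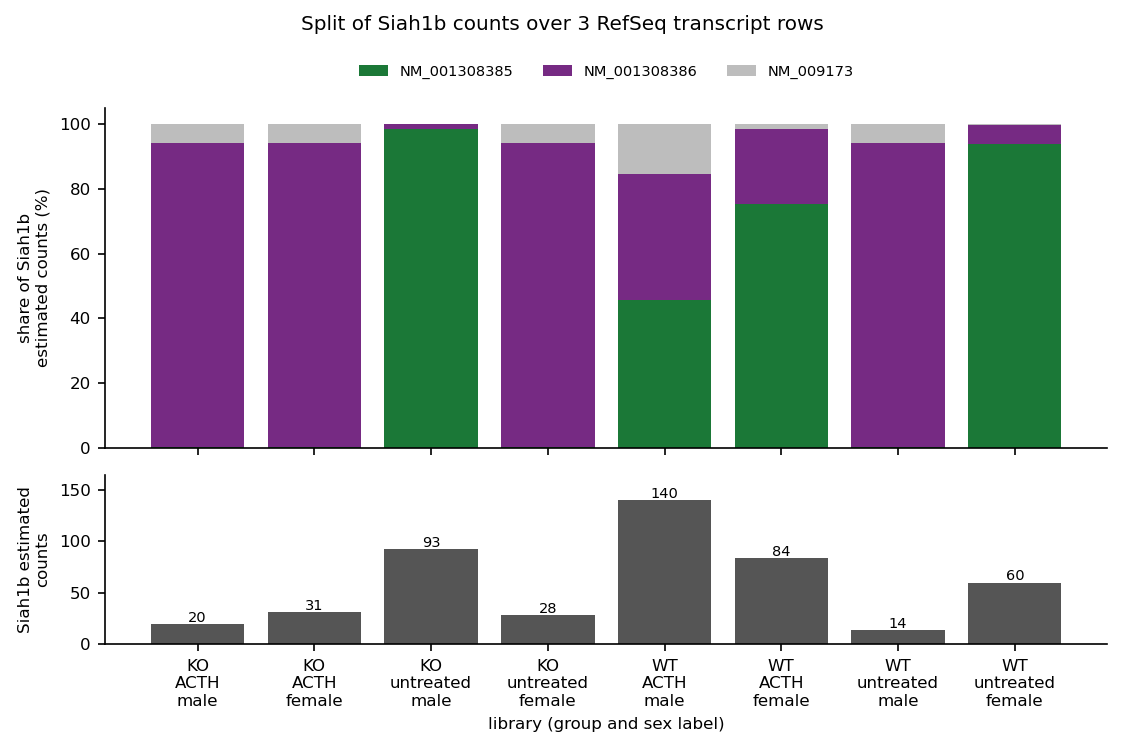
Top, share of the Siah1b estimated counts on each of its 3 RefSeq rows (y axis, percent); bottom, summed Siah1b counts (y axis), for each library along the x axis by group and sex label. The 4 libraries with 14 to 31 counts share 1 split with 94.2% on NM_001308386, and the 4 with 60 to 140 counts have 45.7% to 98.6% on NM_001308385.

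Single Siah1b rows had larger estimates and wider errors than their sum, and they rest on these estimated splits. NM_001308385 had an edgeR log2 fold change of -3.73 for knockout over wild type (SE 3.67, adjusted p 0.806) and -2.53 for ACTH over untreated (SE 2.91, adjusted p 1.00), while NM_001308386 had 0.33 (SE 1.64, adjusted p 0.974) and 0.75 (SE 1.36, adjusted p 1.00). Only 1 row of the 22366 tested was called in each comparison (0.00447%), and it was not a SIAH row. NM_009173 did not pass the count filter, and its RPKM lay between 0.0022 and 0.415. The single rows of Siah1a and Siah2 gave nearly the gene values, with -0.51 (edgeR adjusted p 0.585) for Siah1a by genotype and 1.15 (edgeR adjusted p 1.00) for Siah2 by treatment.

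The upstream windows of 250 bases were searched for TGACG, a short form of the cyclic AMP response element, and for the full element TGACGTCA on both strands. The RefSeq table for mm10 held windows for Siah1a and Siah1b (2 of the 3 genes). The Siah1a window had no match of either motif, was 76.0% G and C, and lay wholly inside the Gm10638 span. The window before the upstream of the 2 Siah1b starts had 2 adjoining matches of TGACG, in capitals below, and no full element, and the window before the other start had no match of either. Of 32544 such windows, 17.8% held at least 1 match of the short form, 3.92% at least 2, and 1.55% the full element. It is shown because ACTH raises cyclic AMP, and Siah1b showed no separation by treatment.
Siah1b chrX:164076494-164076743, minus strand: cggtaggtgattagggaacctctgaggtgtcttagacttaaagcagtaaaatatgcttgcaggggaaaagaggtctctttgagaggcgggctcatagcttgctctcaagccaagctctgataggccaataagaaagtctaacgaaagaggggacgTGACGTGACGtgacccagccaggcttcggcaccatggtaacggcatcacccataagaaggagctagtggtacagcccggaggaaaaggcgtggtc

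Siah2, the hypoxia-linked family member, had higher levels in every ACTH-treated gland than in any untreated gland. It stood at 11.13 (male) and 11.08 (female) RPKM in the ACTH-treated knockout and at 9.46 (male) and 8.57 (female) RPKM in the ACTH-treated wild type. The untreated knockout had 7.14 (male) and 5.31 (female) RPKM, and the untreated wild type 0.509 (labelled male) and 7.54 (female) RPKM. The groups by treatment did not overlap. Such a separation was found for 1.45% of the 15361 genes in this direction and for 2.49% in the other, lower after ACTH. Because the Siah2 groups did not overlap, the ACTH-treated library was bound to be higher in all 4 pairs that share genotype and sex label. The pairs add no support. The mean was 10.1 ± 1.26 RPKM after ACTH and 5.13 ± 3.23 RPKM without (SD, n = 4 each), a ratio of 1.96. Without the untreated wild-type library labelled male, the untreated mean was 6.67 ± 1.19 RPKM (n = 3) and the ratio 1.51.

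The mean difference by treatment was 1.46 on the log2(RPKM + 0.1) scale, with an exact permutation p of 0.0286, the smallest possible, and this p was also reached when any 1 untreated library was left out. Leaving out an ACTH-treated library gave an exact permutation p between 0.0857 and 0.143. The edgeR log2 fold change was 1.14 (SE 0.64, 95% interval -0.36 to 2.63), and its adjusted p of 0.848 did not pass; without the untreated wild-type library labelled male it was 0.63. Within genotypes the edgeR values were 0.79 in the knockout (SE 0.93, adjusted p 1) and 1.53 in the wild type (SE 1.00, adjusted p 1), and their difference was -0.73 (SE 1.37, adjusted p 1). Single libraries decided these values. The wild-type value was 0.28 without the untreated wild-type library labelled male and 4.38 without the untreated wild-type female, where the edgeR adjusted p was 0.0974. The knockout value was 0.19 without the untreated knockout female, 0.22 without the ACTH-treated knockout male and 1.73 without the untreated knockout male. Where 1 gland was left in a group, it was assumed to vary like the others. Without the untreated wild-type library labelled male the difference between genotypes was 0.57. edgeR called 0.0% of genes (0 of 15361) for ACTH within either genotype, with 649 (4.22%) in the knockout and 393 (2.56%) in the wild type at an unadjusted p under 0.05. The summed neuronal markers ranged over 21.2 to 431 CPM after ACTH and 13.6 to 64.9 CPM without, and the chromaffin markers over 1800 to 6344 CPM after ACTH and 1997 to 7369 CPM without; their part in the Siah2 difference was not tested.

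By genotype, Siah2 overlapped. It averaged 8.67 ± 2.91 RPKM in the knockout and 6.52 ± 4.08 RPKM in the wild type (SD, n = 4 each; exact permutation p 0.571), and the edgeR log2 fold change was 0.59 (SE 0.65, 95% interval -0.92 to 2.10, adjusted p 0.752). Without the untreated wild-type library labelled male, the wild-type mean was 8.53 ± 0.961 RPKM (n = 3), which the knockout mean exceeds by a ratio of 1.02, and the edgeR log2 fold change was 0.03 in place of 0.59 on average and -0.32 in place of 0.99 within untreated glands. The genotype estimate for Siah2 therefore rested on that 1 library.

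**Figure D5:**
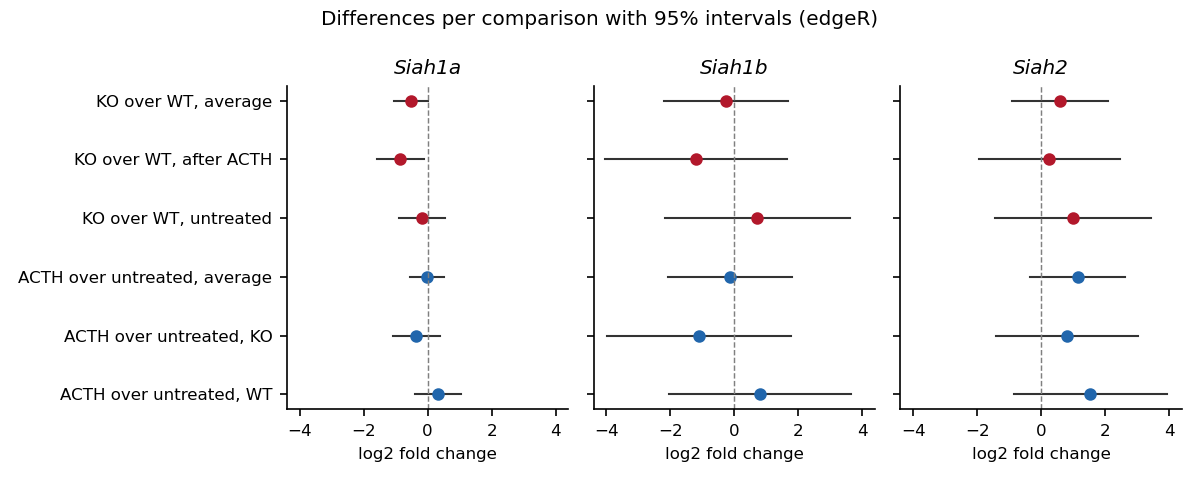
Log2 fold change (x axis) of each SIAH gene in 6 comparisons (rows) from edgeR; points are estimates, red for knockout over wild type and blue for ACTH over untreated, and lines 95% intervals. The Siah1a interval after ACTH (-1.58 to -0.12) is the only 1 of the 18 that leaves out 0, its adjusted p is 0.553, and 8.23% of all genes had an unadjusted p under 0.05 in that comparison.

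The low Siah2 value in the untreated wild-type library labelled male was 12 reads, or 1.41 CPM (exact Poisson 95% interval 0.729 to 2.47, counting error only). The next lowest library, the untreated knockout female, had 15.4 CPM, a 10.9-fold gap. Of the 8113 genes at 10 CPM or more in the other 7 libraries, 10 (0.123%) were at least 8-fold lower in this library than in every other. Besides Siah2 they were Dennd2a, Gucy1b3, Kif1a, Magee1, Ndst2, Nutf2, Piezo2, Vcam1 and Vsnl1, named after their values were seen. The lowest were Magee1, Nutf2 and Piezo2, all at 0 CPM there. Elsewhere Magee1 stood at 11.2 to 36.8 CPM, Nutf2 at 11.8 to 34.0 CPM and Piezo2 at 14.2 to 33.8 CPM. Kif1a, a neuronal axonal motor, stood at 1.65 CPM there and at 17.5 to 53.7 CPM elsewhere. Vsnl1, a calcium sensor of neurons and of the zona glomerulosa, stood at 1.76 CPM there and at 15.1 to 59.5 CPM elsewhere. The ACTH-treated knockout library labelled male had 7 genes that low and the other 6 libraries had 0. The untreated wild-type library labelled male also had the kidney transcripts, the fewest total counts and the lowest cortex marker sum, and their part in its Siah2 level was not tested.

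Per transcript length, the order of the family was Siah1a, then Siah2, then Siah1b in 5 of the 8 libraries. In both ACTH-treated knockout libraries Siah2 stood above Siah1a, by a ratio of 1.50 (male) and 1.57 (female). The ratio of Siah2 to Siah1a was 0.725 and 0.614 in the untreated knockout (male, female), 0.707 and 0.728 in the ACTH-treated wild type, and 0.0454 and 0.697 in the untreated wild type. Outside the ACTH-treated knockout and the untreated wild-type library labelled male, it lay between 0.614 and 0.728. In that last library Siah2 was below Siah1b, at 0.509 and 0.867 RPKM. The summed level of the 3 genes was 18.3 ± 2.13 RPKM in the knockout and 19.9 ± 5.42 RPKM in the wild type (SD, n = 4 each), or 22.3 ± 2.91 RPKM in the wild type without that library (n = 3).

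The genes whose level ran closest to each member over the 8 libraries were found among 12342 genes by the root mean square difference of centred log2 CPM. For Siah1a, which varied by 0.31 on that scale, they were C2cd2l (0.12), Prss36 (0.13) and Adi1 (0.14). For Siah1b, which varied by 0.69, they were Srgap1 (0.27), Kctd21 (0.27) and Cpt1c (0.28). For Siah2, which varied by 1.38, they were Bbof1 (0.38), Kif1a (0.40) and Snai1 (0.41), all of which share its low value in the untreated wild-type library labelled male. These distances describe 8 libraries that also differ in depth and in kidney, liver and neuronal transcripts.

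Genes that work with SIAH proteins did not pass the test in either comparison. The partner list held 12 genes, among them the E2 enzymes of the Ube2d and Ube2e families and the adaptor components Cacybp and Skp1a, and all 12 were tested. edgeR called 0 by genotype and 0 by treatment, and 0 had an unadjusted p under 0.05 in either, against 13.4% and 6.11% of all genes. Their median log2 fold change was 0.07 by genotype, against -0.04 over all genes, and 0.01 by treatment, against 0.02 over all genes. By genotype the smallest p belonged to Usp19, a deubiquitinase, at 154 ± 19.4 CPM in the knockout and 192 ± 20.4 CPM in the wild type (log2 fold change -0.32, edgeR adjusted p 0.430). It was followed by Ube2d3 (0.24, edgeR adjusted p 0.437) and Cacybp (0.34, edgeR adjusted p 0.451). By treatment Ube2d1, an E2 enzyme, was at 16.8 ± 2.44 CPM after ACTH and 23.0 ± 2.17 CPM without (-0.44, edgeR adjusted p 0.848), followed by Skp1a (-0.16) and Tbl1x (0.23), which did not pass. In CPM the groups did not overlap for Ube2d1 and Skp1a by treatment, or for Ube2d3 and, barely (110.9 against 110.8), Cacybp by genotype. On RPKM such a separation in either direction was found for 3.94% of all genes by treatment and 8.38% by genotype.

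The substrate list held 22 genes reported as SIAH targets in cells, all tested, and transcript levels say nothing of the stability of their proteins. edgeR called 0 of 22 in both comparisons. By genotype 4 had an unadjusted p under 0.05, against 13.4% of all genes, with 2 higher and 2 lower in the knockout, and the list median was -0.02 against -0.04 over all genes. By treatment 3 did, against 6.11% of all genes, with all 3 higher after ACTH, and the median was 0.08 against 0.02. Akap1, which anchors protein kinase A at mitochondria, averaged 107 ± 17.9 CPM in the knockout and 143 ± 20.7 CPM in the wild type (log2 fold change -0.42, SE 0.13, edgeR adjusted p 0.229). The same gene averaged 139 ± 27.0 CPM after ACTH and 111 ± 18.7 CPM without (0.33, SE 0.13, edgeR adjusted p 0.767). Spry2, an inhibitor of receptor tyrosine kinase signalling, averaged 93.6 ± 51.1 CPM in the knockout and 46.4 ± 13.5 CPM in the wild type (0.86, SE 0.28, edgeR adjusted p 0.252). It averaged 95.1 ± 46.1 CPM after ACTH and 44.9 ± 21.8 CPM without (1.00, SE 0.28, edgeR adjusted p 0.719).

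Peg10, an imprinted gene derived from a retrotransposon, averaged 741 ± 336 CPM in the knockout and 357 ± 139 CPM in the wild type (log2 fold change 1.05, SE 0.39, edgeR adjusted p 0.301), and the ranges overlapped. Axin1, a scaffold of the β-catenin destruction complex, had 51.1 to 69.5 CPM after ACTH and 26.0 to 42.7 CPM without (0.83, SE 0.21, edgeR adjusted p 0.690). Its CPM groups did not overlap, like those of Ube2d1 and Skp1a by treatment. On RPKM such a separation was found for 1.45% of all genes in this direction and 2.49% in the other. None of these 4 genes passed in the comparisons given.

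Genes within 500000 bases of a SIAH gene numbered 26 listed, of which 18 were tested, and edgeR called 0 of 18 by genotype and by treatment. By genotype 4 had an unadjusted p under 0.05, all higher in the knockout, against 13.4% of all genes in either direction. The median by genotype was 0.38 against -0.04 over all genes, made up of -0.46 for the 3 tested neighbours of Siah1a, 0.32 for the 8 of Siah1b and 0.50 for the 7 of Siah2. By treatment 1 had an unadjusted p under 0.05, against 6.11% of all genes, and the median was 0.34 against 0.02. Near Siah2, Tsc22d2, of the TSC22 domain family, averaged 85.6 ± 17.6 CPM in the knockout and 57.8 ± 14.3 CPM in the wild type (0.57, edgeR adjusted p 0.226). Serp1, a stress-associated protein of the endoplasmic reticulum, averaged 814 ± 108 CPM in the knockout and 578 ± 89.1 CPM in the wild type (0.50, edgeR adjusted p 0.268). These genes share neighbourhoods and are not independent of each other.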

How the data were processed

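Total RNA of 8 adrenal glands was sequenced as single reads of 75 bases from a directional kit, per the labels' protocols. Partek (6.6), Bowtie2 (2.2.5.0), TopHat2 (2.0.13), FastQC (0.11) and the build mm10 are named in the submitters' processing notes. The authors deposited, for each RefSeq transcript, an RPKM and an estimated count, per the file headers. Strand use and the assignment of reads that match several places are details not given in the sources used here. The RPKM denominators were 1.16 to 1.20 times the listed totals.

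Estimated counts were summed per gene symbol and rounded. The filter filterByExpr of edgeR, with its minimum count at 10, left 15361 genes, which were scaled by TMM. edgeR 4.0.16 in R 4.3.3 fitted genotype, treatment and sex label over all 8 libraries (4 residual degrees of freedom), and a model with the interaction of genotype and treatment (3), with Benjamini-Hochberg adjustment over all genes or rows and a threshold of 0.05. Alternatives used limma 3.58.1 and DESeq2 1.42.0. RPKM were compared as log2(RPKM + 0.1) by 12 exact two-sided permutation tests, whose p-values are given unadjusted; that scale understates changes of low values. CPM are of the TMM-scaled libraries. Each library is 1 gland from its own animal, and p-values measure the spread between these animals. Sequences and gene models are from GENCODE transcripts and RefSeq tables of mm10.

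The members and lists were chosen with earlier results of these data known. The members are described in full. From each list, where no gene was called, up to 3 genes with the smallest unadjusted p per comparison were eligible to be named, and for each member the 3 genes closest in level.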

Additional observations from a re-analysis of the deposited data

Results flagged for a closer look

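Siah2 in the untreated wild-type library labelled male stood apart from its groups on the log2(RPKM + 0.1) scale, at -0.71. Its gap to the nearest of the others was 0.919 of the range of the 4 wild-type libraries and 0.864 of that of the 4 untreated libraries, above Dixon's critical value of 0.829 for 4 samples. On the CPM and RPKM scales no sample of any of the 3 genes passed that value. In all, 36 checks were made (12 groups of 4 on 3 scales), and chance flags about 1 in 20 groups.

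The effect of ACTH on Siah1a had opposite signs in the genotypes: both knockout libraries after ACTH were below, and both wild-type libraries after ACTH above, the untreated library of the same genotype and sex label. The difference of the effects was -0.67 on the log2 scale (edgeR adjusted p 1), which did not pass.

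Siah3, a relative of the SIAH genes outside the 3 described, had 5 estimated counts (0.191 CPM) in the wild-type female given ACTH, whose library had liver transcripts, and 1 in the untreated wild-type female. It was at 0 in the other 6 libraries, which allows at most 0.353 CPM in the shallowest (3 counts, counting error only).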

How the results depend on the processing

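No paired analysis was possible because each library is from a different animal and the labels state no match between animals. The pairs named above share labels only. The sex label, with 1 male and 1 female per group by label, was a covariate in the fits, and leaving it out is an alternative below. The label was kept for the untreated wild-type library labelled male, whose Xist and Y-linked levels go against it. No fit recoded that library, so the covariate and the pairs by sex label rest there on a label that its markers contradict. None of the SIAH genes passed an adjusted p of 0.05 in any alternative. For Siah1a by genotype the log2 fold change lay between -0.64 and -0.43 over 16 alternatives, and for Siah2 by treatment between 0.63 and 1.84 over 15. Genes called by genotype (4) numbered 41 without a filter, 108 with limma-voom, 932 with DESeq2, 1 without the sex covariate and 0 to 253 with each library left out. Genes called by treatment (3) numbered 8 without a filter, 123 with DESeq2, 0 without the sex covariate, 0 in the interaction model, 0 without both wild-type libraries with kidney or liver transcripts (added after the data were seen) and 0 to 23 with each library left out. For the interaction (0), DESeq2 called 8, and leaving out each library gave 0 to 11. The cause of these shifts was not tested.

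Signs turned for the treatment effect on Siah1a with limma-voom (0.0547; row NM_009172 0.0619) and with Gm10638 reads added (0.0215), and for row NM_001308385 by treatment with limma-voom (0.21). With each library left out, signs turned within these ranges of log2 fold change: Siah1a by treatment -0.12 to 0.12 (its row -0.12 to 0.11), Siah1b by genotype -0.89 to 0.18 and by treatment -0.55 to 0.52, the Siah2 interaction -3.54 to 0.57, Siah1b by genotype in untreated glands -0.23 to 1.53, Siah2 by genotype in untreated glands -0.32 to 3.78 and after ACTH -0.31 to 0.73, row NM_001308385 by treatment -5.10 to 2.07, and row NM_001308386 by genotype -0.68 to 1.23. On the log2 RPKM scale the ranges were -0.24 to 0.0634 for Siah1a by treatment, -0.52 to 0.0855 for Siah1b by genotype, -0.42 to 0.19 for Siah1b by treatment, -0.0362 to 1.29 for Siah2 by genotype, -1.12 to 0.46 for NM_001308385 by treatment, -0.34 to 0.88 for NM_001308386 by genotype and -0.58 to 0.18 for NM_009173 by genotype. For both separations the exact permutation p rose above 0.0286 in 4 of 8 such omissions each. The groups stayed apart throughout, since leaving out a library cannot make separated groups overlap. The differences lay within -0.61 to -0.45 for Siah1a by genotype and 0.59 to 1.81 for Siah2 by treatment. Siah1b rested on 14 to 140 reads per library.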
